A study of Mus musculus with 12 samples.

Results

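The LTR/ERVK predicted piRNAs of mouse prefrontal cortex (PFC) are the piRNAs that were predicted in the 12 small RNA libraries, rather than taken from a database, and whose genomic source was annotated as a repeat of the family LTR/ERVK. They numbered 109 of 424 predicted piRNAs, and of 693 piRNAs when the 269 known piRNAs are included. Each was deposited with a locus (chromosome, strand, start and end), and the 109 lay at 36 of 114 loci. The members were chosen by this annotation alone, without regard to their levels.

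ERVK elements are endogenous retroviruses flanked by long terminal repeats, and in mouse they include copies that are still able to transpose. piRNAs are small RNAs bound by PIWI proteins, best known from the germ line, where they guide the silencing of transposons by cleavage of transcripts and by DNA methylation. In brain, small RNAs annotated as piRNAs are far less abundant than miRNAs, and a predicted piRNA is a call from sequence and position, without evidence that a PIWI protein bound it.

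The PFC came from adult male C57BL/6 mice after a conditioned place preference (CPP) test, which measures how much an animal prefers a place paired with a drug. The groups were SS (saline and saline), CS (cocaine with saline), MS (methionine, MET, with saline) and MC (MET with cocaine), with MET at 1 g/kg given subcutaneously 2 times a day for 10 days and cocaine at 20 mg/kg. The MET dose is that of the labels and the study's methods, and a figure legend of the study states a lower one. Every group had 3 libraries, each a pool of RNA from 2 animals collected 2 h after the test, so the p-values below measure the spread between pools. All groups went through CPP training, and no untrained group was among these libraries.

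Library totals ranged from 7.77 to 11.1 in units of 1000000 counts, and LTR/ERVK piRNAs had between 935 and 1834 counts in each. A predicted piRNA was never listed with fewer than 10 counts, so a piRNA or locus described as not listed may have had up to 9 counts for each piRNA. The brain miRNA miR-124-3p was at 3.00e+04 to 1.763e+05 counts per 1000000 counts of the library (CPM) in the 12 libraries, whereas 3 of 5 male germ line miRNAs were at 0 in all of them and the 5 together reached at most 0.486 CPM. The profile of 204 miRNA precursor families split the libraries into 3 sets that cut across the groups. Set A held SS replicate 12, CS replicate 8 and CS replicate 9, set C held CS replicate 10, MC replicate 16 and MC replicate 17, and set B held the other 6 libraries, all 3 MS libraries among them. Results that rest on 1 set are given with that set.

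Of the 36 loci, 25 were intergenic and 11 intronic, and none lay in an exon of a host gene. The intergenic loci had 70.8% of the LTR/ERVK counts and lay 2.1 to 1164.9 kb from the nearest protein-coding gene (median 57.5 kb). The loci were spread over 14 chromosomes, with 18 on each strand, and were 46 to 1585 bases long (median 379). The 13 loci of at most 130 bases had 66.5% of the LTR/ERVK counts. Most of this came from the 2 loci with the highest level, of 62 and 127 bases, which alone had 53.9%. Intronic loci made up 30.6% of LTR/ERVK loci, against 25% for LTR/ERV1, 56.25% for LTR/ERVL-MaLR and 50% for LINE/L1.

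A group of 5 intronic loci lay within 47.2 kb on chromosome 2, in introns of Sfmbt2, a Polycomb-group gene that hosts a large cluster of miRNAs. Each of the 5 overlapped an annotated miRNA gene. The overlap was on the same strand for the locus of novel_pir534 (chr2:10467242-10467312, + strand), which lay whole within Mir669f, for that of novel_pir490 (chr2:10483965-10484039, + strand), which shared 74 bases with Mir466c-2, and for that of novel_pir533 (chr2:10509173-10509344, + strand), which shared 49 bases with Mir669c. The loci of novel_pir487 (chr2:10494036-10494121) and novel_pir486 (chr2:10514312-10514403) were antisense to Mir669a-9 and Mir669o, with 79 and 84 shared bases. The 5 loci had 6 piRNAs and 1.63% of the LTR/ERVK counts. Only the first was seen in most libraries, with 10 to 32 counts in 11 of 12, and the mature miR-669f-3p had 0 to 17 counts per library (median 8). Reads of a predicted piRNA and of a miRNA from the same hairpin strand cannot be told apart from these counts. Such overlap was not particular to LTR/ERVK, since 6 of 8 LINE/L2 loci and 1 of 16 LTR/ERVL-MaLR loci also overlapped a miRNA gene, as did 1 locus each of LINE/CR1, DNA, DNA/TcMar-Mariner and DNA/hAT-Charlie, against 0 of 24 for LINE/L1, 0 of 20 for LTR/ERV1 and 0 of 4 for LTR/ERVL. One further LTR/ERVK locus, that of novel_pir253 (chr14:120798436-120798953), overlapped the snRNA gene Gm25781 and was listed in 1 library.

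Few loci carried most of the signal. The locus with the highest level had 38.0% of the LTR/ERVK counts, the first 2 had 53.9% and the first 10 had 88.1%. Of the 36 loci, 6 were listed in all 12 libraries, 5 in 11 and 9 in 1 library only, where none of the 9 had over 14 counts. All 4 groups were represented at 17 loci, and 10 loci were listed in 1 group only. Among single piRNAs, 12 of 109 were listed in all 12 libraries and 35 in 1. Of 538 listed values, 49.1% were between 10 and 19 counts and 55 were exactly 10, so many members sat at the listing minimum, which came to between 0.903 and 1.29 CPM.

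**Figure D1:**
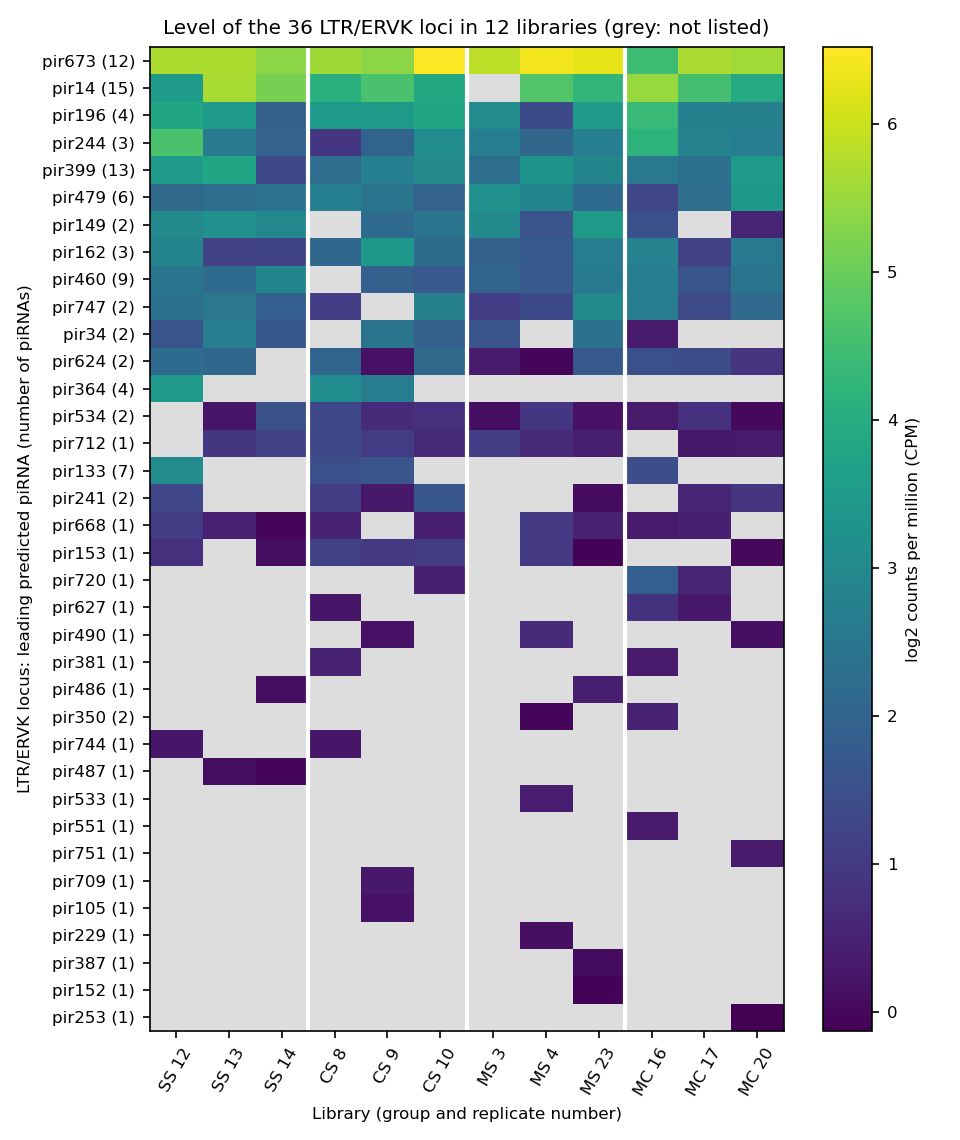
Each row is 1 of the 36 LTR/ERVK loci, named by its leading predicted piRNA (without the prefix novel_) with the number of piRNAs at the locus, and each column is a library. Colour is log2 CPM and grey means not listed. The 6 loci without a grey cell are among the upper rows, and the lowest 9 rows have 1 coloured cell each.

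The locus with the highest level was chr5:57215739-57215800 (+ strand, 62 bases, mm10), in an intergenic region 502.2 kb from Pcdh7, which encodes a protocadherin. Its level was 52.4, 51.9 and 41.1 CPM in SS replicates 12, 13 and 14, and 47.4, 41.5 and 91.7 CPM in CS replicates 8, 9 and 10. It was 57.4, 84.8 and 77.6 CPM in MS replicates 3, 4 and 23, and 21.8, 50.9 and 48.7 CPM in MC replicates 16, 17 and 20. The MS libraries were all above the SS and the MC libraries, and CS overlapped every other group.

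The chromosome 5 locus had 12 predicted piRNAs, 7 of which were listed in all 12 libraries. The leading one, novel_pir673, had 28.2% of the counts of the locus, with 23.1% to 33.9% in single libraries. It was followed by novel_pir672 with 14.7% and novel_pir679 with 14.3%. It was the most abundant of the 12 in every library.

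**Figure D2:**
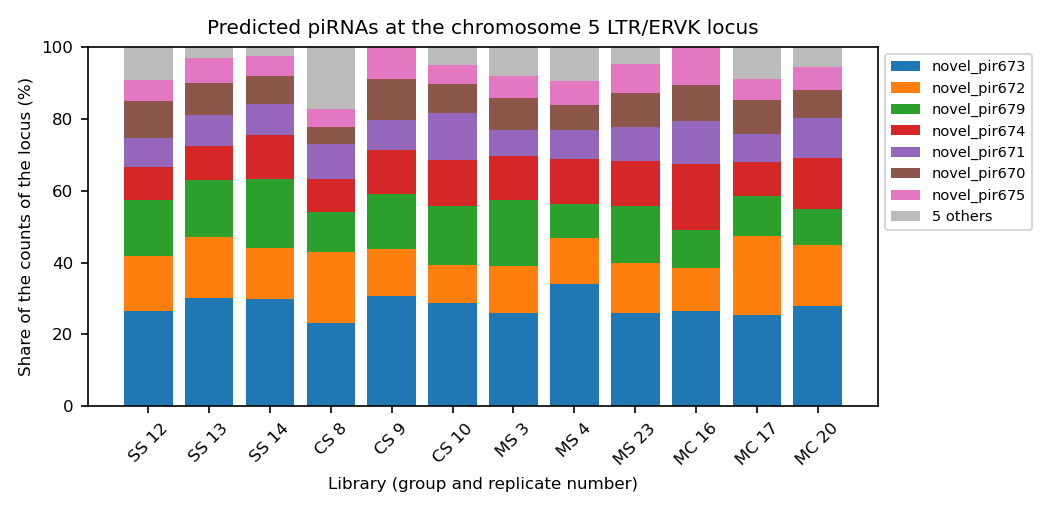
Stacked bars give the share (%) of the counts of the chromosome 5 locus taken by each predicted piRNA in each library, with the 5 least abundant piRNAs in grey. novel_pir673 (bottom of each bar) took 23.1% to 33.9% in the 12 libraries.

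The next locus, chr10:93544791-93544917 (+ strand, 127 bases), lay in an intron of Ccdc38, which encodes a coiled-coil domain protein, on the strand of the gene. It had the most piRNAs, 15, led by novel_pir14 with 18.9% of its counts. Its level was 11.7, 50.2 and 35.8 CPM in SS, 17.0, 24.3 and 15.2 in CS, and 44.9, 23.5 and 15.4 in MC. In MS it was 26.5 and 18.9 CPM in replicates 4 and 23 and was not listed in replicate 3, although that library had 1231 LTR/ERVK counts at the other loci. The groups overlapped at this locus in all 4 comparisons.

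The other loci listed in all 12 libraries were lower and varied by 40.6% to 79.4% (coefficient of variation over 12 libraries), against 35.8% for the chromosome 5 locus. The intergenic locus of novel_pir196 (chr11:9975636-9975989, - strand) had a mean of 10.2 CPM and ranged from 2.60 CPM in MS replicate 4 to 20.9 CPM in MC replicate 16. The intergenic locus of novel_pir244 (chr14:31515238-31515829, + strand), 5.4 kb from Eaf1, was the most uneven of them, with 24.4 CPM in SS replicate 12 and 1.89 CPM in CS replicate 8. The locus of novel_pir399 on chromosome 18 (- strand, 863 bases) had 13 piRNAs and ranged from 2.53 to 13.7 CPM, both in SS. The locus of novel_pir479 (chr1:32588609-32588654, - strand), antisense in an intron of the RNA-binding protein gene Khdrbs2, had 2.45 to 10.7 CPM, both in MC. The locus of novel_pir162 (chr11:84150091-84150159, + strand) lay in introns of Acaca, the gene of an acetyl-CoA carboxylase of fatty acid synthesis, and of Gm11437 on the opposite strand, and had 2.26 to 10.7 CPM. Groups overlapped at each of these 5 loci in all 4 comparisons.

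**Figure D3:**
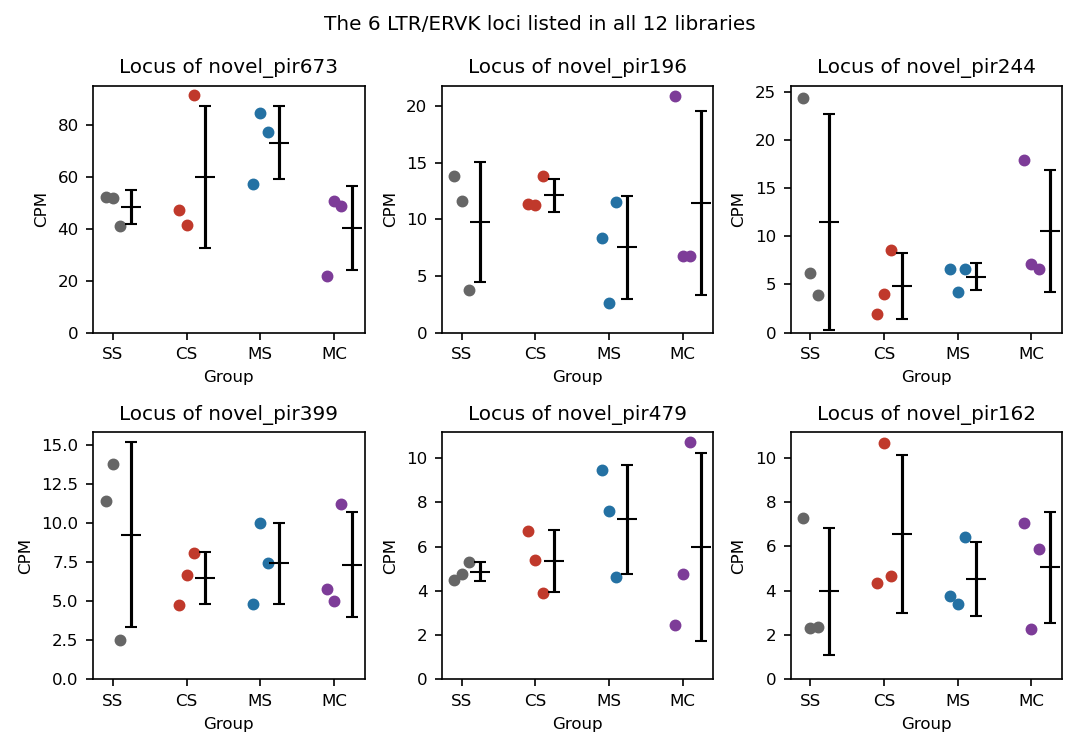
CPM of the 6 loci listed in all 12 libraries, 1 panel each, with a point for each library (3 per group) and the mean and SD beside them. The MS points of the novel_pir673 locus lie above those of SS and MC, and in the other panels the groups overlap.

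Of the 10 loci with the highest means, the remaining 3 were missing from 1 or 2 libraries. The locus of novel_pir149 (chr10:65262870-65263271, - strand, intergenic) had 8.14, 9.36 and 7.67 CPM in SS and 8.21, 3.10 and 11.4 CPM in MS. It had 4.59 and 5.38 CPM in 2 CS libraries and 2.83 and 1.47 CPM in 2 MC libraries, and was not listed in CS replicate 8 and MC replicate 17. The locus of novel_pir460 (chr1:131785110-131786614, + strand, 9 piRNAs), 10.8 kb from Pm20d1, had 5.47, 4.58 and 7.58 CPM in SS, and in CS 3.79 and 3.30 CPM, without a listing in CS replicate 8. The locus of novel_pir747 (chrX:10297218-10297700, - strand), antisense in an intron of the urea cycle gene Otc, had 2.10 to 8.08 CPM in 11 libraries and was not listed in CS replicate 9.

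The summed level of LTR/ERVK piRNAs was lower than that of LTR/ERV1 and LTR/ERVL-MaLR and higher than that of LINE/L1, the 3 families it was compared with. Over the 12 libraries it was 148 ± 26.3 CPM (SD), against 581 ± 120 CPM for LTR/ERV1, 292 ± 118 CPM for LTR/ERVL-MaLR and 54.0 ± 39.0 CPM for LINE/L1. It was below LTR/ERV1 in all 12 libraries (mean log2 difference -1.96; adjusted p = 0.000732, two-sided permutation test of paired differences with adjustment over the 3 families) and below LTR/ERVL-MaLR in all 12 (-0.91; adjusted p = 0.000732, the same test), where the unadjusted p of 0.000488 is the smallest that 4096 sign flips can give. It was above LINE/L1 in 11 of 12 (1.71; adjusted p = 0.000977, the same test). LTR/ERVK had more piRNAs than LTR/ERV1 (109 against 46) but fewer counts for each listed one, 30.8 ± 4.66 against 196 ± 24.3 (SD, n = 12). The coefficient of variation of its summed level over the libraries was 17.8%, against 20.6% for LTR/ERV1, 40.5% for LTR/ERVL-MaLR and 72.3% for LINE/L1, which is given as a description.

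Differences between the groups in the summed level were within the spread of their libraries. The SS libraries averaged 160.5 ± 29.8 CPM, the CS libraries 148.3 ± 28.9, the MS libraries 150.1 ± 33.6 and the MC libraries 133.1 ± 19.7 (SD, n = 3), with p = 0.660 among groups (exact permutation test of the F statistic over 369600 groupings). In pairs, the log2 difference was -0.11 (SE 0.23) for CS vs. SS, -0.11 (SE 0.26) for MS vs. SS, -0.15 (SE 0.20) for MC vs. CS and -0.16 (SE 0.23) for MC vs. MS. The adjusted two-sided exact permutation p lay between 0.8 and 0.9, in a design in which 3 libraries against 3 cannot give a p below 0.1. In bulk tissue, fewer cells of a type and less RNA per cell cannot be told apart. Within set A, SS had 179 CPM in 1 library and CS had 126 and 139. Within set B, SS had 126 and 177 CPM, MS 112 to 177 and MC 127, and within set C, CS had 181 CPM and MC 117 and 155. The SS libraries listed 52, 52 and 43 LTR/ERVK piRNAs and the CS libraries 43, 45 and 41, against 35, 47 and 49 for MS and 44, 39 and 48 for MC (p = 0.493, exact permutation test).

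The share of LTR/ERVK in all predicted piRNA counts was more uneven. It averaged 12.5 ± 1.92% for SS and 10.7 ± 2.06% for CS, against 13.6 ± 1.44% for MS and 8.80 ± 0.710% for MC (SD, n = 3). The 3 MC libraries, at 8.12% to 9.53%, lay below all SS (10.9% to 14.6%) and all MS libraries (12.0% to 14.9%), while CS (8.91% to 12.9%) overlapped every group. The 3 neuron miRNAs also separated MC from SS, with summed levels of 7.769e+04 to 1.161e+05 CPM in MC against 1.603e+05 to 2.502e+05 in SS, and no other marker list did. They overlapped between MC and MS (9.982e+04 to 2.339e+05 in MS). The part of these miRNAs in the share was not tested. The exact permutation test gave p = 0.0370 among groups, which did not pass after adjustment over the 3 tests among groups (adjusted p = 0.111). Without 1 library in turn the p ranged from 0.0211 to 0.0984 and was above the threshold without SS replicate 14, CS replicate 9, MS replicate 4, MS replicate 23 or any 1 of the MC libraries. Within set A the share was 10.9% in the 1 SS library against 8.91% and 10.2% in CS. Within set B the share was 9.53% in the 1 MC library against 12.0% to 14.9% in MS, and within set C it was 8.12% and 8.76% in MC against 12.9% in the 1 CS library. Because a share falls when others rise, the level of the other families belongs beside it. LTR/ERV1 averaged 671 ± 86.7 CPM for MC against 442 ± 56.9 for MS and 617 ± 157 for SS (SD, n = 3). LTR/ERVL-MaLR averaged 363 ± 202 CPM for MC against 192.5 ± 17.15 for MS and 274 ± 87.1 for SS. LINE/L1 averaged 78.6 ± 70.75 CPM for MC against 28.5 ± 8.84 for MS and 46.7 ± 34.5 for SS. The remaining predicted piRNAs averaged 282 ± 37.9 CPM for MC against 283 ± 61.0 for MS and 203 ± 16.8 for SS.

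**Figure D4:**
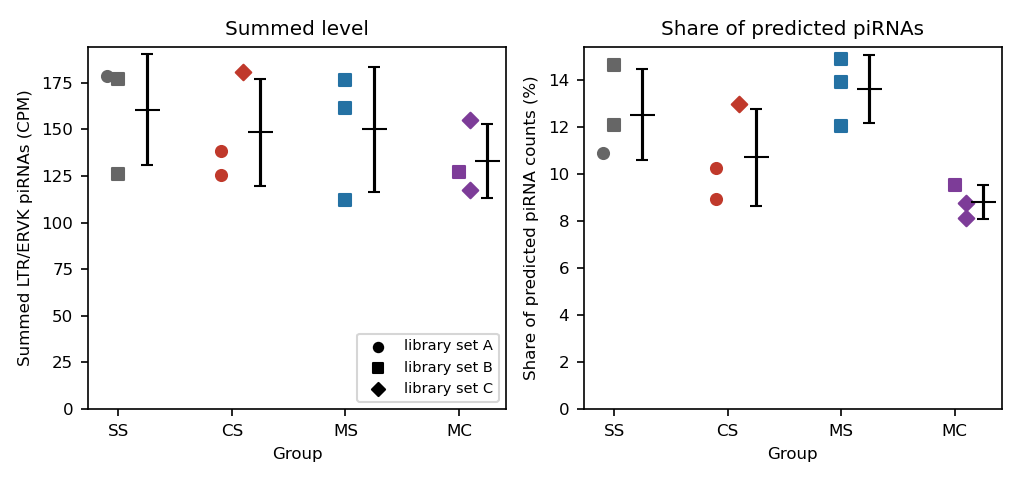
Summed LTR/ERVK level (left, CPM) and share of LTR/ERVK in predicted piRNA counts (right, %), with 1 point for each library, the marker shape giving the library set, and the mean with SD beside each group of 3. The groups overlap on the left, and on the right the MC libraries, at 8.12% to 9.53%, lie below the SS and MS libraries.

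Single loci were tested with edgeR over the whole piRNA table, in which 136 rows, 22 of them LTR/ERVK loci, had enough counts. The other 14 LTR/ERVK loci were listed in at most 2 libraries. The threshold for a call was an adjusted p no higher than 0.05 together with a log2 fold change of 1 or more in either direction. Not listed entered the fit as 0 counts. Groups are described as not overlapping from the counts as listed, and each such locus was looked at again with every unlisted piRNA at 9 counts. The background beside a count is the share of all 136 rows, with the LTR/ERVK loci included.

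CS vs. SS asks which loci differed after cocaine. None of the 22 LTR/ERVK loci was called by edgeR's quasi-likelihood test (lowest adjusted p = 0.99), none had an unadjusted p under 0.05 and DESeq2 called 0, where 0% of the 136 rows were called by edgeR and 0% by DESeq2. The median log2 fold change was -0.11, with 10 loci higher and 12 lower, against 0.17 over all rows. The locus of novel_pir244 had the lowest p, with 4.82 ± 3.41 CPM in CS and 11.5 ± 11.3 in SS (log2 fold change -1.42, SE 0.73, adjusted p = 0.99), and moved to -0.50 without SS replicate 12 and to -2.16 with library set as a covariate. As listed, all 3 CS libraries were below all SS libraries at 2 loci (background 1.47% of rows), those of novel_pir149 and novel_pir460, with log2 fold changes of -1.61 (SE 1.41) and -1.58 (SE 1.09). These 2 loci are themselves the only rows behind that background. With unlisted piRNAs at 9 counts the novel_pir149 locus stayed apart, but the novel_pir460 locus did not, since the CS libraries could then lie above the SS libraries as listed. Without CS replicate 8 the value of the latter was -1.01. All 3 were above at 1 locus (background 5.88%), that of novel_pir153 (chr11:103964592-103964682, - strand), 2.1 kb from Arf2, with 2.24, 1.95 and 2.08 CPM in CS against 1.70 and 1.08 CPM in the 2 SS libraries that listed it. With 19 counts or fewer in each library, this difference is close to the listing minimum. The loci of novel_pir720 (chr7:61492965-61493813, - strand), novel_pir627 (chr3:55092856-55092932, - strand) and novel_pir490 were not listed in SS and had 11, 10 and 10 counts in 1 CS library each, within reach of the 9 counts that an unlisted piRNA may have, so no fold is given. The summed level of the 2 red blood cell miRNAs also separated these groups. It was 2346 to 2662 CPM in CS against 1492 to 2209 in SS, and no other marker list separated them. Of the 2, miR-451a separated the groups (2341 to 2658 CPM in CS against 1489 to 2205 in SS) and miR-144-3p overlapped. Among single members of the lists that overlapped, the choroid plexus miR-34c-5p was higher in CS (18.21 to 30.57 CPM against 11.92 to 17.62 in SS). The germ line miR-741-3p was at 0 CPM in CS and at 0.0903 to 0.243 CPM in SS, near the floor. The other members of these lists overlapped. The part of these miRNAs in these differences was not tested.

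MS vs. SS asks which loci differed after MET alone. No LTR/ERVK locus was called by edgeR (lowest adjusted p = 0.702), none had an unadjusted p under 0.05 and DESeq2 called 0, where 0% of the 136 rows were called by edgeR and 1.47% by DESeq2. The median log2 fold change was -0.38, with 5 loci higher and 15 lower, against -0.18 over all rows. The chromosome 5 locus was the 1 at which the groups did not overlap with MS higher (background 8.09%), at 73.3 ± 14.2 against 48.4 ± 6.39 CPM (log2 fold change 0.48, SE 0.46, adjusted p = 0.834), and it stayed apart with unlisted piRNAs at 9 counts. This log2 fold change lay between 0.43 and 0.62 without any 1 library and was 0.27 with library set as a covariate, all 3 MS libraries being in set B. Markers of other cells also separated these groups. The 2 red blood cell miRNAs summed to 2557 to 3960 CPM in MS against 1492 to 2209 in SS, the 2 leukocyte miRNAs to 19.7 to 29.9 against 9.24 to 16.6, and the liver miRNA miR-122-5p was at 69.4 to 2494 against 11.2 to 58.8, while the neuron, oligodendrocyte and choroid plexus lists overlapped. Among single members of the lists that overlapped, miR-9-5p was lower in MS (3.876e+04 to 4.267e+04 CPM against 4.875e+04 to 6.162e+04 in SS). The choroid plexus members miR-34b-5p (3.657 to 7.02 against 1.992 to 3.038) and miR-34c-5p (18.48 to 31.09 against 11.92 to 17.62) were higher in MS. The other members of these lists overlapped. The part of these markers in the level of the locus was not tested. No locus had all MS libraries below all SS libraries (background 2.94%). The locus of novel_pir490 over Mir466c-2 had 16 counts in MS replicate 4 and was listed in no other MS or SS library, so no fold is given.

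MC vs. CS asks how loci differed when MET was added to cocaine. No LTR/ERVK locus was called by edgeR (lowest adjusted p = 0.835), none had an unadjusted p under 0.05 and DESeq2 called 0, where 0% of the 136 rows were called by edgeR and 1.47% by DESeq2. The median log2 fold change was -0.35, with 8 loci higher and 14 lower, against -0.01 over all rows. The 3 MC libraries were below the 3 CS libraries at 2 loci (background 4.41%), those of novel_pir153 (1 of 3 MC libraries listed, at 1.01 CPM) and of novel_pir712 (chr7:30680406-30680897, + strand), which had 2.48, 2.07 and 1.59 CPM in CS against 1.25 and 1.28 CPM in 2 MC libraries. Both stayed apart with unlisted piRNAs at 9 counts. The novel_pir712 locus had 21, 18 and 13 counts in CS against 10 and 14 in the 2 MC libraries, close to the listing minimum. CS replicate 10 had 13 counts and MC replicate 20 had 14, so these libraries lay apart only through their totals. They were above at none (background 2.21%). The locus of novel_pir244 was higher in MC, at 10.5 ± 6.37 CPM against 4.82 ± 3.41 in CS, by a log2 fold change of 0.94 (SE 0.72, adjusted p = 0.938), which lay between 0.44 (without CS replicate 8) and 1.44 (without CS replicate 10) when 1 library was left out and was 0.50 without MC replicate 16. That of novel_pir460 had 5.02 ± 1.82 CPM in MC and 2.36 ± 2.06 in CS (0.87, SE 1.08, adjusted p = 0.938), and the value was 0.22 without CS replicate 8, which did not list it, 1.35 without CS replicate 9, 0.56 without MC replicate 20 and 0.50 with library set as a covariate. The locus of novel_pir34 (chr10:82574668-82574785, - strand) was listed in 2 CS libraries, at 5.40 and 3.79 CPM, and in 1 MC library at 1.29 CPM (log2 fold change -3.24, SE 2.01, adjusted p = 0.938). With unlisted loci at 9 counts this was -1.84, and without MC replicate 16 no MC library listed the locus.

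MC vs. MS asks how loci differed when cocaine was added to MET. No LTR/ERVK locus was called by edgeR (lowest adjusted p = 0.711), 1 had an unadjusted p under 0.05 (background 3.68% of rows) and DESeq2 called 0 (2 with an unadjusted p under 0.05, background 8.09%), where 0% of the 136 rows were called by edgeR and 2.21% by DESeq2. The median log2 fold change was -0.23, with 8 loci higher and 13 lower, against 0.04 over all rows. The locus with the unadjusted p under 0.05 was the chromosome 5 locus, at 40.5 ± 16.2 CPM in MC against 73.3 ± 14.2 in MS (log2 fold change -1.08, SE 0.47, unadjusted p = 0.0421, adjusted p = 0.711). Without MC replicate 16, the lowest library, the value was -0.78, and without MC replicate 17 it was -1.54. As listed, the MC libraries were below all MS libraries at 3 loci (background 2.94%), the chromosome 5 locus and those of novel_pir149 (log2 fold change -2.87, SE 1.49, adjusted p = 0.749) and novel_pir712 (-1.19, SE 1.42, adjusted p = 0.942). These 3 loci are among the 4 rows behind that background. With unlisted piRNAs at 9 counts 2 of the 3 stayed apart, and the novel_pir149 locus did not. At the novel_pir712 locus MS replicate 23 and MC replicate 20 both had 14 counts, so they lay apart only through their library totals. They were above at none (background 9.56%). The loci of novel_pir720 and novel_pir627 were not listed in MS and had 28 and 12, and 14 and 10, counts in MC replicates 16 and 17, both of set C. With the MS libraries set to 9 counts each and the unlisted MC replicate 20 left at 0, the levels were at least 1.98-fold and at least 1.18-fold higher in MC (adjusted p = 0.711 for both, edgeR).

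**Figure D5:**
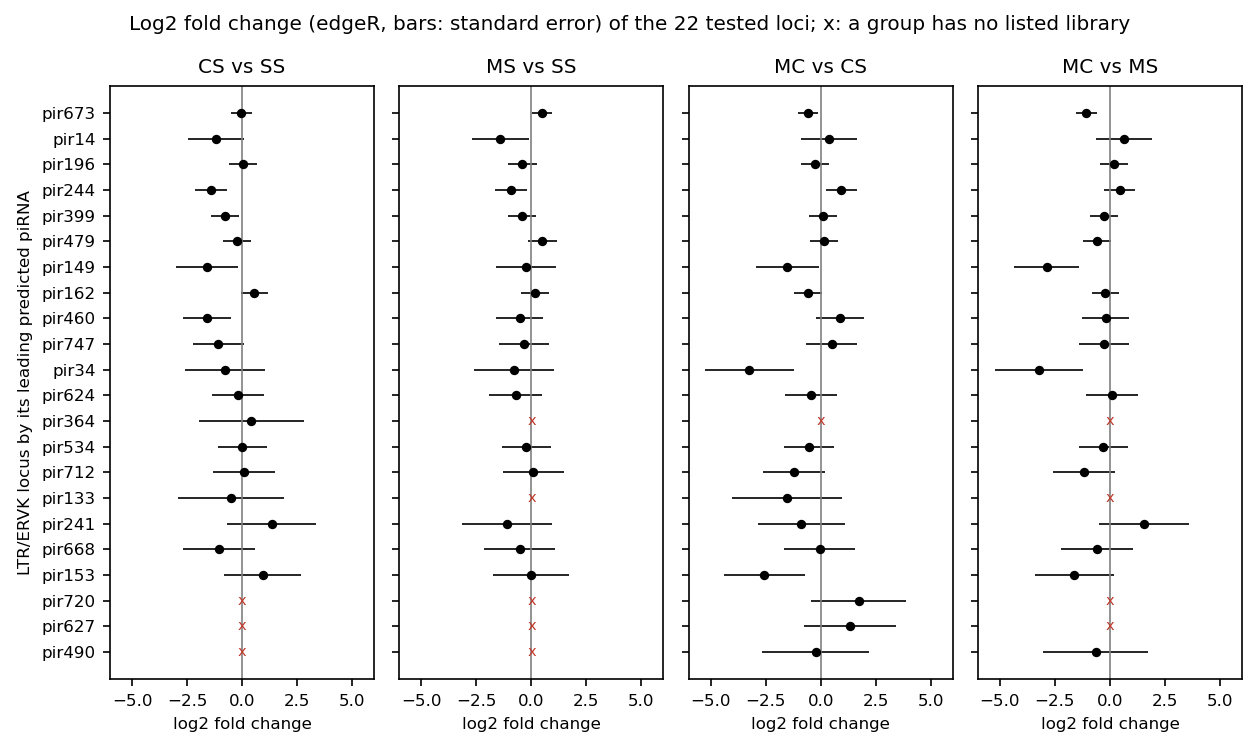
Log2 fold change with its standard error for the 22 tested LTR/ERVK loci (rows, by leading piRNA) in the 4 comparisons, from the edgeR fit. A red x marks a locus that 1 or both groups did not list, for which no fold is drawn, and no locus drawn has an adjusted p below 0.702.

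The scale moved these directions. With TMM factors from all features in place of the piRNA table, the median over all rows in MC vs. MS shifted by 0.56 on the log2 scale and the LTR/ERVK median went from -0.23 to 0.16. In CS vs. SS the shift was 0.11 and the LTR/ERVK median went from -0.11 to 0.02, and with library totals alone it was 0.22. Relative to the median of all rows the LTR/ERVK median was lower in each comparison, by 0.16 to 0.43 over the scalings run. A scale factor moves all rows of a library alike, so the scalings are not separate evidence for this gap. The comparisons share groups, so they are not independent of each other either. The gap itself was not tested. In the interaction of cocaine and MET, edgeR called 0 of 22 loci (0 with an unadjusted p under 0.05, lowest adjusted p = 0.979), where 0% of the 136 rows were called, and DESeq2 called 0 LTR/ERVK loci (0.735% of rows).

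A pair of loci was listed mainly in the libraries of set A. The locus of novel_pir364 (chr16:11886030-11886610, + strand, 4 piRNAs), antisense in an intron of the phosphatase gene Cpped1, had 89 counts in SS replicate 12, 73 in CS replicate 8 and 55 in CS replicate 9, and was listed nowhere else. These are the 3 libraries of set A. For a lower bound, each of its 4 piRNAs was set to 9 counts in MS and MC, and unlisted SS and CS libraries stayed at 0. The locus was then at least 1.05-fold lower in MS than in SS and at least 1.20-fold lower in MC than in CS (adjusted p = 0.702 and 0.835, edgeR). The SS mean rests on 1 library. Within set B neither SS nor MS libraries listed it, and within set C neither the CS nor the MC libraries did. The locus of novel_pir133 (chr10:40551172-40551742, + strand, 7 piRNAs, intergenic, 18.6 kb from Slc22a16) had 69 counts in SS replicate 12, 24 in CS replicate 8, 27 in CS replicate 9 and 21 in MC replicate 16. It was not listed in MS (adjusted p = 0.702 against SS, edgeR), and no fold is given because 7 unlisted piRNAs may hold 63 counts. Within set B it was listed in neither SS nor MS.

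Across the 12 libraries, the level of the chromosome 5 locus followed most closely 3 loci of other repeat families among 135 rows compared. They were a LINE/CR1 locus over Mir582 (Pearson r of log2 CPM 0.77, Spearman rho 0.64), a LINE/L2 locus over Mir421, Mir374b and Mir374c (r 0.77, rho 0.56) and a DNA/TcMar-Mariner locus over Mir340 (r 0.76, rho 0.53). The chromosome 5 locus itself overlapped no annotated small RNA gene. The libraries share their depth in each of these correlations, which are given as a description.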

How the data were processed

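RNA of 18 to 30 nt was sequenced in reads of 50 bases. Known piRNAs were identified by the authors through Bowtie matches to piRBase with up to 1 mismatch, among reads that AASRA had not assigned to miRNA, tRNA or rRNA. The submitters' processing notes name mm10 and Bowtie. The tool that predicted piRNAs is not given in the sources used here. The deposited counts are raw reads per small RNA, and the TPM values the authors deposited are that count per 1000000 counts of the library, within 0.005 in all 12 libraries. CPM was computed here from the counts. Samples were grouped by their labels.

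LTR/ERVK piRNAs were summed per locus and library. The fit used edgeR 4.0.16 in R 4.3.3 (quasi-likelihood test, 4 group coefficients, 8 residual degrees of freedom, TMM factors from the piRNA table, at least 5 counts in at least 3 libraries, Benjamini-Hochberg adjustment over 136 rows). Single values used exact permutation tests written in Python 3.11.15 with numpy 2.4.6. DESeq2 1.42.0, other filters and scalings, a library set covariate and each library left out were alternatives. Genes came from GENCODE M21 (GRCm38). Library sets came from average linkage (scipy 1.17.1) of log profiles of 204 precursor families. The fit and the permutation tests were tested on simulated data.

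Members and lists were chosen with earlier results of these data known. Named were the 10 loci of highest mean, those listed in all 12 libraries, the 5 with most piRNAs, in each comparison the 2 with the lowest p in each direction, up to 3 loci whose groups did not overlap, and the 3 rows most like the first locus. Loci over small RNA genes were singled out after their positions were seen. No piRNA sequence was used here.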

Additional observations from a re-analysis of the deposited data

How the results depend on the processing

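Of 516 alternative values, 327 of them with a library left out, 493 kept their side of the threshold or count of calls, and any direction. The tests among groups and the counts of called loci have no direction. No paired analysis was possible because the groups share no replicate numbers. For the share of predicted counts, p = 0.0370 by the exact permutation test became 0.121 with the share of all piRNA counts and lay between 0.0211 and 0.0984 without 1 library. With only the piRNAs listed in all 12 libraries, the log2 difference of the summed level turned to 0.13 in CS vs. SS and 0.32 in MS vs. SS. Without 1 library it ranged from -0.270 to 0.0908 in MS vs. SS (highest without MS replicate 3) and from -0.265 to 0.00299 in MC vs. CS (highest without CS replicate 10). Without a filter on low counts, edgeR called 2 LTR/ERVK loci in MS vs. SS (2.09% of the 383 rows were called), those of novel_pir364 (adjusted p = 0.000541) and novel_pir133 (adjusted p = 0.00866), and 1 in MC vs. CS (0.783% of rows), that of novel_pir364 (adjusted p = 0.000245). In every other alternative, DESeq2 among them, no LTR/ERVK locus was called. With unlisted loci set to 9 counts, the fitted log2 fold change in CS vs. SS turned to -0.0158 for novel_pir720 and -0.0699 for novel_pir627. With library set as a covariate it turned to -0.37 for novel_pir720 in CS vs. SS, 1.67 for novel_pir133 in MS vs. SS and 0.29 for novel_pir364 in MC vs. CS. For novel_pir133 in MS vs. SS it ranged from -8.29 to 0 without 1 library, the latter without SS replicate 12, and these fitted values depend on entering unlisted piRNAs as 0 and are no measure of a fold. The cause of these shifts was not tested. The median standard error of a locus was 1.24 to 1.34 on the log2 scale in the 4 comparisons, and 49.1% of listed values were from 10 to 19 counts.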
